A study of Gallus gallus with 26 samples.

Results

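The microRNAs miR-143, miR-145, miR-133a and miR-1a were measured in chicken ovary, in late-stage ovarian tumour, early-stage ovarian tumour and normal ovary. The 6 miRNAs described were chosen by name from the deposited count table, with both arms for miR-143 and miR-145 and the 3p arm for miR-133a and miR-1a: gga-miR-143-3p, gga-miR-143-5p, gga-miR-145-5p, gga-miR-145-3p, gga-miR-133a-3p and gga-miR-1a-3p (the prefix, for chicken, is left off below). They are 6 of the 1235 miRNAs in the table, and all 6 passed the filter on low counts, which 266 miRNAs passed. The study compared small RNA and messenger RNA from 5 late tumours, 4 early tumours and 4 normal ovaries. The labels give the tissue and the stage of each sample and name no strain, age or treatment. They name no sorting of cells, so fewer cells of a type and less RNA per cell cannot be told apart in any value below. Samples are named by group and by the number in their code. Whether each is a different bird is not said, and p-values therefore reflect only how much these 13 samples vary.

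MiRNAs are short RNAs that bind messenger RNAs and lower their translation or stability. MiR-143 and miR-145 are cut from neighbouring hairpins and are known in mammals as markers of smooth muscle, where serum response factor and myocardin switch on their genes and where they favour the contractile state. MiR-1 and miR-133a are cut from a shared transcript in skeletal muscle and heart, where they act in muscle development, and miR-133a has also been found in vascular smooth muscle. Each hairpin gives a 5p and a 3p strand, of which usually a single strand is loaded into the silencing complex and kept. The ovary holds smooth muscle in its stroma, in the walls of its vessels and around its follicles.

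MiRNA libraries held between 3038926 and 7728289 counts and messenger RNA libraries between 16273668 and 20118500. Early sample 11 stood apart: miR-451, a miRNA of red blood cells, took 36.3% of its miRNA counts, against 2.14% to 11.6% in the other libraries. Levels of miRNAs are given as normalised CPM, counts scaled to library size and then between libraries, and the mature miRNAs described are 21 to 24 bases long in the deposited table. Together the 6 miRNAs took 9.27% to 11.7% of the counts in late tumours, 8.23% to 17.9% in early tumours and 11.8% to 20.9% in normal ovaries.

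gga-miR-143-3p, the kept strand of miR-143, was among the 3 most abundant miRNAs of every library. Its normalised CPM was 65721, 79214, 78927, 113438 and 113948 in late samples 3, 7, 23, 25 and 31. It was 134964, 91703, 96793 and 184552 in early samples 9, 11, 12 and 21, and 137632, 191356, 155815 and 96157 in normal samples 3, 4, 6 and 7. Late samples 3, 7 and 23 lay below every early and normal library, while late samples 25 and 31 lay above normal sample 7, so the groups overlapped. Its rank was 3 in all 5 late tumours, in early sample 11 and in normal sample 7, and 2 in the other libraries. The share of counts behind these values was lowest in early sample 11, at 7.16% (95% Wilson interval 7.14% to 7.18%), the library rich in miR-451, and highest in normal sample 4, at 19.2% (19.15% to 19.22%). Such intervals cover counting error only. MiR-143-3p averaged 90249 ± 22085 in late tumours, 127003 ± 42950 in early tumours and 145240 ± 39604 in normal ovaries (SD, n = 5, 4 and 4).

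gga-miR-145-5p, the kept strand of miR-145, varied least of the 6 and ranked between 12 and 18 among all miRNAs. Its normalised CPM was 13852, 15868, 14112, 11318 and 14659 in late samples 3, 7, 23, 25 and 31. It was 16117, 12484, 11588 and 10097 in early samples 9, 11, 12 and 21, and 9594, 14858, 12701 and 14803 in normal samples 3, 4, 6 and 7. All 3 groups covered much the same range, and the highest library was only 1.68 times the lowest. The same quotient was 2.91 for miR-143-3p, 2.37 for miR-145-3p, 3.45 for miR-1a-3p, 4.05 for miR-133a-3p and 6.80 for miR-143-5p. MiR-145-5p averaged 13962 ± 1669 in late tumours, 12571 ± 2561 in early tumours and 12989 ± 2476 in normal ovaries (SD, n = 5, 4 and 4).

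The other strands were scarcer. gga-miR-145-3p had a normalised CPM of 425, 622, 519, 648 and 669 in late samples 3, 7, 23, 25 and 31, of 565, 536, 612 and 759.7 in early samples 9, 11, 12 and 21, and of 788, 780.0, 1008 and 569.6 in normal samples 3, 4, 6 and 7. Normal samples 3, 4 and 6 lay above every late and early library, and normal sample 7 lay among the late tumours. gga-miR-143-5p rested on 21 to 130 counts a library. Its normalised CPM was 10.6, 9.42, 3.62, 5.12 and 4.88 in late samples 3, 7, 23, 25 and 31, 16.5, 9.73, 15.2 and 9.74 in early samples 9, 11, 12 and 21, and 11.3, 10.7, 11.6 and 24.6 in normal samples 3, 4, 6 and 7. Every late tumour lay below every normal ovary, though the highest late value, 10.6, and the lowest normal value, 10.7, nearly met. As shares of library counts the 2 groups overlapped, with 0.00140% in late sample 3 and 0.000931% in normal sample 6.

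gga-miR-133a-3p, known from skeletal muscle and heart, was close in abundance to miR-145-3p. Its normalised CPM was 286, 505, 406, 478 and 1139.5 in late samples 3, 7, 23, 25 and 31. It was 715, 559.9, 678 and 594 in early samples 9, 11, 12 and 21, and 1156, 1069, 932 and 753 in normal samples 3, 4, 6 and 7. On this scale all 4 early tumours lay below all 4 normal ovaries. Late samples 3, 7, 23 and 25 lay below every early and normal library, and late sample 31 lay beside the highest normal ovary. As shares of library counts the early and normal groups overlapped, with 0.0840% in early sample 9 and 0.0745% in normal sample 6. Late sample 7, at 0.0551%, then lay above early samples 11 and 21, at 0.0437% and 0.0537%.

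gga-miR-1a-3p, which shares its transcript with miR-133a in muscle, had a normalised CPM of 162, 151, 247, 239.7 and 310.4 in late samples 3, 7, 23, 25 and 31. It was 172, 113, 223 and 357 in early samples 9, 11, 12 and 21, and 171, 389, 157 and 171 in normal samples 3, 4, 6 and 7. No group stood apart, and normal sample 4 and early sample 21 were the highest libraries. It averaged 222 ± 65.8 in late tumours, 216 ± 104 in early tumours and 222 ± 111 in normal ovaries (SD, n = 5, 4 and 4).

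**Figure D1:**
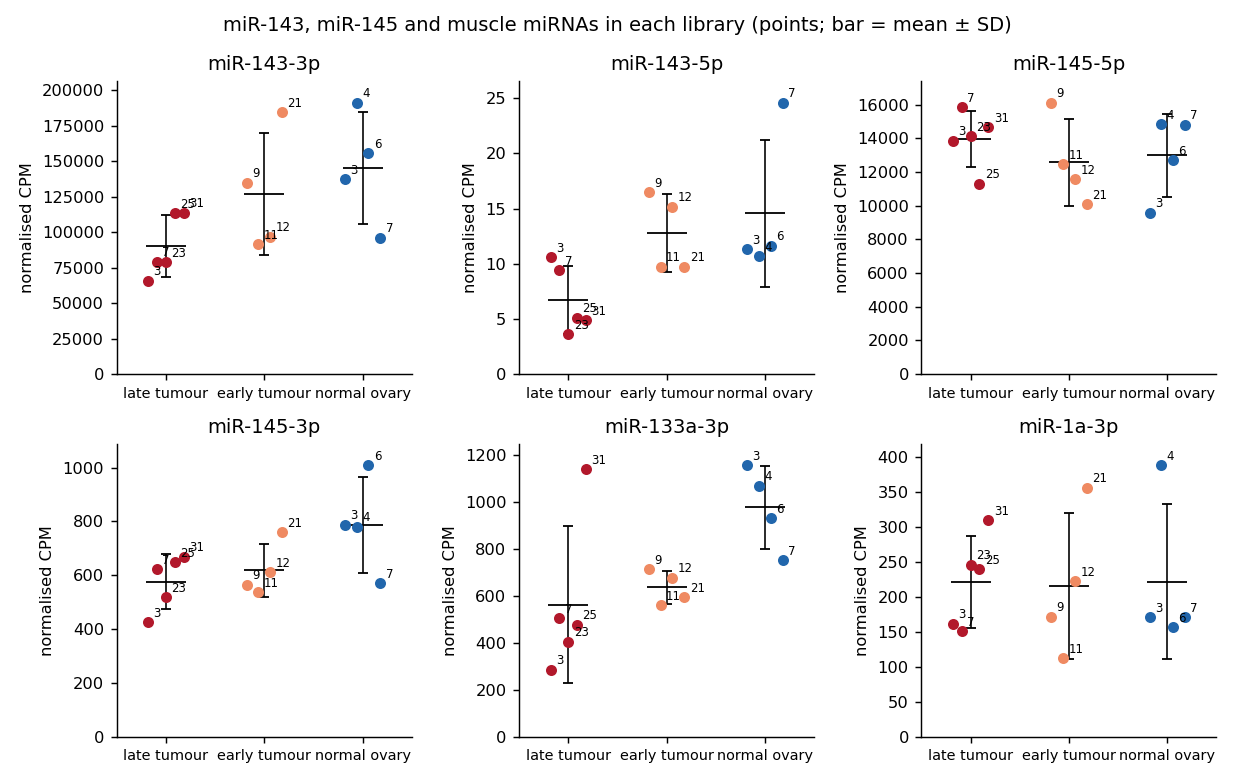
Normalised CPM of each of the 6 miRNAs in every library, with the code number beside each point and a bar for the mean ± SD of 5 late tumours, 4 early tumours and 4 normal ovaries. MiR-143-3p lies lower in late samples 3, 7 and 23 than in any other library, miR-145-5p covers the same range in all groups, and late sample 31 stands at 1139.5 for miR-133a-3p, apart from the other late tumours.

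In late tumour against normal ovary, the fold changes of miR-143-3p, miR-143-5p, miR-145-3p and miR-133a-3p were negative and those of miR-145-5p and miR-1a-3p were close to 0. None of the 6 miRNAs passed the threshold, an edgeR quasi-likelihood adjusted p under 0.05, in a comparison in which 0.752% of the 266 miRNAs tested did. DESeq2, which called 5.91% of miRNAs, and limma voom (with sample quality weights), which called 0%, also called 0 of the 6. At an unadjusted p under 0.05, 4 of the 6 were lower, beside 12.4% of all miRNAs tested lower and 18.4% in either direction. MiR-143-3p had a log2 fold change of -0.69 ± 0.26 SE (edgeR adjusted p = 0.194) and miR-143-5p of -1.11 ± 0.37 (adjusted p = 0.166). In normalised CPM, miR-143-5p was the single one of the 6 whose late and normal groups did not overlap. It was lower in late, which held for 3.76% of all miRNAs tested. As shares of library counts its late and normal groups overlapped. MiR-145-3p had a log2 fold change of -0.45 ± 0.20 SE (edgeR adjusted p = 0.248), and miR-145-5p of 0.10 ± 0.18 (adjusted p = 0.773).

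MiR-133a-3p had a log2 fold change of -0.80 ± 0.31 SE in late against normal (edgeR adjusted p = 0.197), with 563 ± 333 in late tumours and 978 ± 176 in normal ovaries (SD, n = 5 and 4). Late sample 31 drew this value toward 0: without that sample the log2 fold change was -1.17 and miR-133a-3p passed the threshold (edgeR adjusted p = 0.0167). Over all comparisons this was the 1 alternative run in which miR-133a-3p passed, and in 50 others it did not. The share of all miRNAs that passed in that run is not given here. MiR-1a-3p had a log2 fold change of 0.00 ± 0.36 SE (edgeR adjusted p = 0.999), and without normal sample 4 it was 0.52. Across the 6 miRNAs the median log2 fold change was -0.57 with 5 of 6 below 0, beside a median of -0.12 and 59% below 0 over all miRNAs tested. These 5 include miR-1a-3p, at -0.000533, whose sign changed in several alternative runs.

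In early tumour against normal ovary all 6 fold changes were below 0 and none passed, in a comparison in which 0% of miRNAs passed in edgeR. Those of miR-145-5p and miR-1a-3p, at -0.05 and -0.04, changed sign in some alternative runs. None of the 6 had an unadjusted p under 0.05, against 8.27% of all miRNAs, and neither DESeq2 (1.14% of miRNAs called) nor limma voom (0%) called any of the 6. The log2 fold change furthest from 0 was that of miR-133a-3p, at -0.62 ± 0.33 SE (edgeR adjusted p = 0.653), whose early tumours averaged 637 ± 71.8 and normal ovaries 978 ± 176 (SD, n = 4 each). In normalised CPM its groups did not overlap, lower in early, as for 2.26% of all miRNAs tested. As shares of library counts they overlapped. MiR-143-3p had a log2 fold change of -0.19 ± 0.28 SE (edgeR adjusted p = 0.918), which was 0.01 without normal sample 4. The median over the 6 was -0.19, beside -0.10 over all miRNAs tested, of which 60.5% lay below 0.

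In late against early tumour none of the 6 passed, again beside 0% of all miRNAs in edgeR, and DESeq2 (1.52% of miRNAs called) and limma voom (0%) called none of them. Of the 6, 4 lay below 0, beside 54.5% of all miRNAs. MiR-143-5p alone had an unadjusted p under 0.05, beside 14.3% of all miRNAs tested, with a log2 fold change of -0.92 ± 0.37 SE (edgeR adjusted p = 0.321). MiR-143-3p had a log2 fold change of -0.49 ± 0.26 SE (edgeR adjusted p = 0.406), and miR-133a-3p of -0.18 ± 0.31 (adjusted p = 0.814). The comparisons that share a group are not independent of each other.

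**Figure D2:**
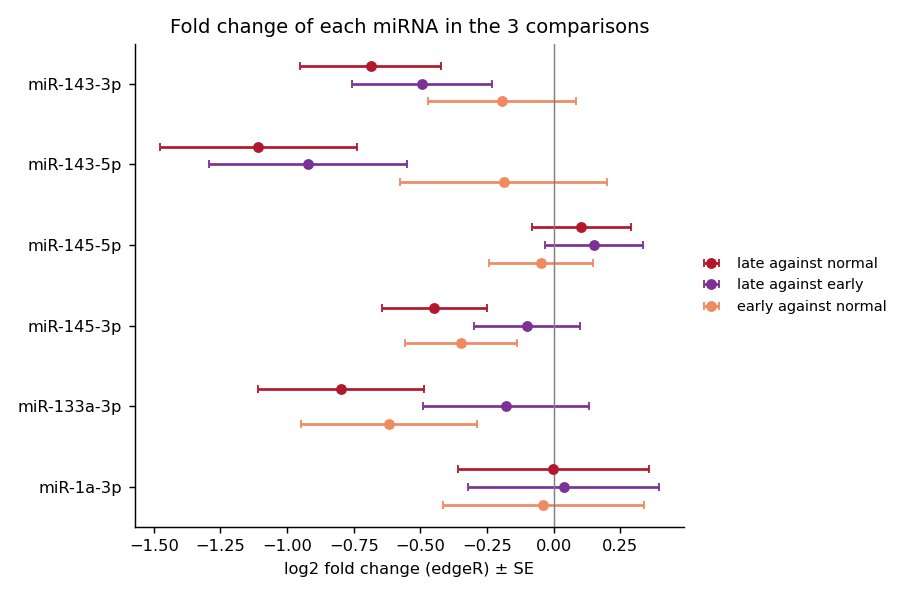
Log2 fold change of each miRNA with its standard error, from edgeR, in late against normal, late against early and early against normal. MiR-143-5p lies furthest from 0 in late against normal, at -1.11, while the bars of miR-145-5p and miR-1a-3p cross 0 in all 3 comparisons.

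Ratios between miRNAs of a library need no scaling between libraries, and 4 of them were compared. MiR-143-3p was 4.74, 4.99, 5.59, 10.02 and 7.77 times as abundant as miR-145-5p in late samples 3, 7, 23, 25 and 31. It was 8.37, 7.35, 8.35 and 18.3 times as abundant in early samples 9, 11, 12 and 21, and 14.3, 12.9, 12.3 and 6.496 times in normal samples 3, 4, 6 and 7. All 5 late tumours lay below normal samples 3, 4 and 6, and normal sample 7 lay among the late tumours. The log2 ratio averaged 2.67 ± 0.46 in late tumours, 3.299 ± 0.60 in early tumours and 3.46 ± 0.52 in normal ovaries (SD, n = 5, 4 and 4). Late minus normal was -0.79 ± 0.33 SE, with an exact two-sided permutation p of 0.0476, which did not pass when adjusted over the 12 ratio tests (0.310).

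MiR-133a-3p was 1.76, 3.34, 1.65, 1.99 and 3.67 times as abundant as miR-1a-3p in late samples 3, 7, 23, 25 and 31. It was 4.16, 4.97, 3.04 and 1.67 times as abundant in early samples 9, 11, 12 and 21, and 6.75, 2.75, 5.93 and 4.40 times in normal samples 3, 4, 6 and 7. Normal samples 3, 6 and 7 exceeded all late tumours and normal sample 4 did not. The log2 ratio averaged 1.23 ± 0.54 in late tumours, 1.68 ± 0.69 in early tumours and 2.23 ± 0.57 in normal ovaries (SD, n = 5, 4 and 4). Late minus normal was -1.0 ± 0.38 SE (exact two-sided permutation p = 0.0556, adjusted p = 0.310). The smallest p these permutations allow is 0.00794 for 5 against 4 samples and 0.0286 for 4 against 4. After adjustment over all ratio tests, neither can pass for a single ratio alone. That a ratio did not pass therefore says little about whether it differed.

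No difference in the choice of strand passed, and none could have passed alone after adjustment over all ratio tests. MiR-145-5p made up 96.0 ± 0.927% of miR-145 counts in late tumours, 95.1 ± 1.56% in early tumours and 94.1 ± 1.88% in normal ovaries (SD, n = 5, 4 and 4). Late minus normal was 1.89 percentage points ± 1.03 SE (exact two-sided permutation p = 0.103, adjusted p = 0.310). MiR-143-3p made up between 99.97% and 99.996% of miR-143 counts in every library. No ratio passed in early against normal or in late against early, with adjusted p between 0.310 and 0.914 in exact permutation tests.

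**Figure D3:**
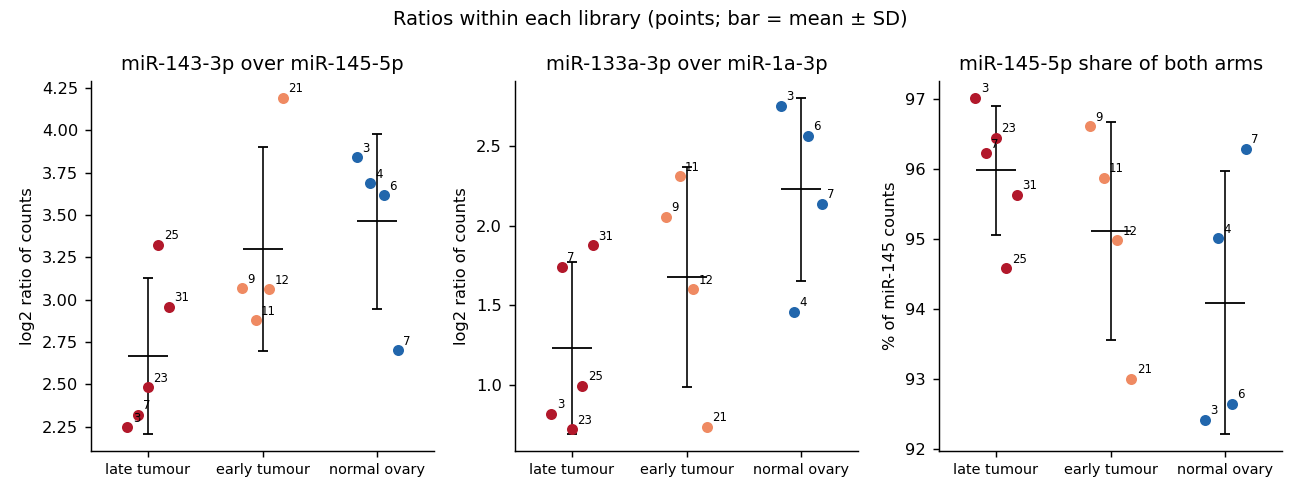
Log2 ratio of miR-143-3p over miR-145-5p, log2 ratio of miR-133a-3p over miR-1a-3p and the share of miR-145-5p among miR-145 counts in every library, with code numbers and a bar for mean ± SD. Normal samples 3, 4 and 6 lie above all late tumours for the first ratio, at 3.62 to 3.84, and the groups overlap in each panel; the axes do not start at 0.

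The table held 12 of 15 other muscle miRNAs looked for, and 4 of them passed the filter. MiR-133c-3p, a near-identical copy of miR-133a-3p, lay between 1.28 and 2.83 normalised CPM in late tumours, between 2.01 and 3.96 in early tumours and between 3.59 and 6.30 in normal ovaries, on 225 counts in all. Late and normal groups did not overlap, lower in late, as for 3.76% of all miRNAs tested. The log2 fold change was -1.39 ± 0.34 SE (edgeR adjusted p = 0.0517, DESeq2 adjusted p = 0.0240), just outside the threshold in edgeR and inside it in DESeq2. DESeq2 called 5.91% of miRNAs in this comparison, and limma voom, which called 0%, did not call it. MiR-1b-3p, a near-identical copy of miR-1a-3p, averaged 126 ± 69.5 in late tumours, 174 ± 88.8 in early tumours and 156 ± 84.8 in normal ovaries (SD, n = 5, 4 and 4). Its log2 fold change in late against normal was -0.31 ± 0.45 SE (edgeR adjusted p = 0.723). How reads that match several copies were counted is not given in the sources used here, so the split between miR-133a, miR-133b and miR-133c, and between miR-1a and miR-1b, is uncertain. With the copies summed, late against normal gave -0.75 for miR-133a-3p and -0.10 for miR-1a-3p, and neither passed.

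MiR-1b-5p, the other strand of miR-1b, had a log2 fold change of -1.33 ± 0.50 SE in late against normal (edgeR adjusted p = 0.194) on 138 counts. MiR-499-5p, made from an intron of a muscle myosin gene, averaged 34.3 ± 10.9 in late tumours, 25.96 ± 6.93 in early tumours and 27.8 ± 5.30 in normal ovaries (SD, n = 5, 4 and 4), with a log2 fold change of 0.30 ± 0.28 SE in late against normal (edgeR adjusted p = 0.576). MiR-206, a copy of the miR-1 family found in skeletal muscle, had 17 counts over all 13 libraries, and miR-133b had 14, miR-133a-5p 56, miR-499-3p 99 and the 5p strand of miR-1a-2 11. None of these 5 passed the filter.

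The 6 miRNAs did not all move together across the 13 libraries. Relations were computed on log2 normalised CPM for all 15 pairs, with permutation p-values adjusted over the 15. Where 2 samples were left out, they were those farthest from the median of the second miRNA named, so they can differ between pairs. MiR-143-3p and miR-145-3p went together, with Pearson r = 0.812 (permutation p = 0.00068, adjusted p = 0.0102) and Spearman rho = 0.835 (permutation p = 0.00067, adjusted p = 0.01), and r was 0.785 without the 2 samples farthest from the median (adjusted permutation p = 0.0759). MiR-143-3p and miR-133a-3p had r = 0.695 (permutation p = 0.00944, adjusted p = 0.0472) and rho = 0.720 (permutation p = 0.00799, adjusted p = 0.0448), and without 2 samples r was 0.571 (adjusted permutation p = 0.345), no longer past the threshold. MiR-145-3p and miR-133a-3p had r = 0.731 (permutation p = 0.00478, adjusted p = 0.0358) and rho = 0.709 (permutation p = 0.00897, adjusted p = 0.0448), and without 2 samples r was 0.553 (adjusted permutation p = 0.345).

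MiR-145-5p followed none of them. Its r was -0.316 with miR-143-3p (permutation p = 0.290, rho = -0.170) and -0.370 with miR-145-3p, its own other strand (permutation p = 0.215, rho = -0.291). MiR-133a-3p and miR-1a-3p had r = 0.261 (permutation p = 0.388, rho = 0.214). Centred on the group means, the r of miR-143-3p was 0.769 with miR-145-3p (adjusted permutation p = 0.0979) and 0.523 with miR-133a-3p (adjusted permutation p = 0.182), neither past the threshold. These levels share the scaling of their library.

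The miRNAs most like each of the 6 over the 13 libraries, by Spearman rho of log2 normalised CPM, are given as a description. For miR-143-3p they were miR-27b-5p (0.896), miR-1b-5p (0.863) and miR-145-3p (0.835). For miR-145-3p they were let-7k-5p (0.841), miR-143-3p and miR-338-5p (0.830). For miR-133a-3p they were its copy miR-133c-3p (0.841), miR-10b-5p (0.824) and miR-222a (0.797), and for miR-1a-3p its copy miR-1b-3p (0.813), miR-21-3p (0.769) and miR-10a-3p (0.758). For miR-143-5p they were miR-460a-3p (0.846), miR-214 (0.786) and miR-16c-5p (0.780). MiR-145-5p had the least similar neighbours: miR-132c-5p (0.659), miR-218-5p (0.654) and miR-30a-3p (0.484).

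Messenger RNA of the same sample codes gave the levels of smooth muscle genes. Of 18 smooth muscle genes, 17 were in the table and tested, and all 17 had a log2 fold change below 0 in late against normal, with a median of -1.99 beside 0.01 over all 16130 genes tested. Of all genes 49.1% lay below 0. None of the 17 passed in edgeR, as for 0% of all genes, and 15 had an unadjusted p under 0.05, beside 17.9% of all genes. DESeq2 called 5 of the 17, all lower (TAGLN, ACTG2, MYL9, SMTN and LMOD1), beside 0.813% of all genes, and limma voom 3 of these (TAGLN, MYL9 and SMTN), beside 5.54%. In early against normal 15 of 17 lay below 0, beside 48% of all genes, with a median of -1.04 and 3 at an unadjusted p under 0.05, beside 5.04%. In late against early 17 of 17 lay below 0, beside 49.5% of all genes, with a median of -0.80 and 1 at an unadjusted p under 0.05, beside 6.34%. In these 2 comparisons edgeR and limma voom called 0% of all genes and DESeq2 0.0516% and 0.0593%, and none of the 17.

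The 4 smooth muscle genes with the highest TPM (transcripts scaled for gene length and library size) show how far the samples spread. TAGLN, an actin-binding protein of contractile smooth muscle, stood at 25.5, 178, 86.9, 336 and 125 TPM in late samples 3, 7, 23, 25 and 31. It stood at 924, 87.5, 157 and 412 TPM in early samples 9, 11, 12 and 21, and at 2717, 3157, 622 and 150.3 TPM in normal samples 3, 4, 6 and 7. Normal sample 7 lay within the late range, and early samples 9 and 21 lay above it. The log2 fold change of TAGLN in late against normal was -3.71 ± 1.00 SE (edgeR adjusted p = 0.244). ACTG2, the actin of visceral smooth muscle, averaged 111 ± 113 TPM in late tumours, 251 ± 296 TPM in early tumours and 1481 ± 1409 TPM in normal ovaries (SD, n = 5, 4 and 4). MYL9, a myosin light chain, and TPM2, a tropomyosin, had log2 fold changes of -2.05 ± 0.56 and -1.99 ± 0.60 SE in late against normal (edgeR adjusted p = 0.244 each). Between the highest and the lowest library, normalised CPM differed 174-fold for TAGLN and 16.3-fold at the median of the 17 genes, against 2.91-fold for miR-143-3p.

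A smooth muscle score, the mean of centred log2 CPM over the 17 genes, was set beside each of the 6 miRNAs over the 13 codes, as was a striated muscle score, which makes 12 relations. It was assumed that the miRNA and messenger RNA libraries of a code come from the same tissue. MiR-143-3p followed the smooth muscle score, with r = 0.857 (permutation p = 0.00022, adjusted p = 0.00264) and rho = 0.830 (permutation p = 0.00089, adjusted p = 0.0107). Late sample 3 was lowest in both, and normal sample 4 was highest in both. Normal sample 7 had a score of -0.63 and its miR-143-3p level, like its score, lay within the range of the late tumours. Without the 2 samples farthest from the median score r was 0.830 (adjusted permutation p = 0.0202), and centred on group means it was 0.795 (permutation p = 0.00684, adjusted p = 0.0821), no longer past the threshold over the 12 relations.

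MiR-145-3p had r = 0.720 (permutation p = 0.00541, adjusted p = 0.0325) and rho = 0.742 (permutation p = 0.00527, adjusted p = 0.0316) with the smooth muscle score, and without 2 samples r was 0.669 (adjusted permutation p = 0.153). MiR-133a-3p had r = 0.676 (permutation p = 0.0114, adjusted p = 0.0457) and rho = 0.604 (permutation p = 0.0336, adjusted p = 0.134), and without 2 samples r was 0.496 (adjusted permutation p = 0.356), so that without them neither relation passed the threshold. Centred on group means r was 0.570 for miR-145-3p and 0.457 for miR-133a-3p (adjusted permutation p = 0.348 each). MiR-145-5p showed no such relation (r = -0.18, permutation p = 0.553, rho = 0.0714), nor did miR-143-5p (r = 0.159, permutation p = 0.605) or miR-1a-3p (r = 0.349, permutation p = 0.241). No miRNA of the 6 passed with the striated muscle score (adjusted permutation p between 0.484 and 0.824).

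**Figure D4:**
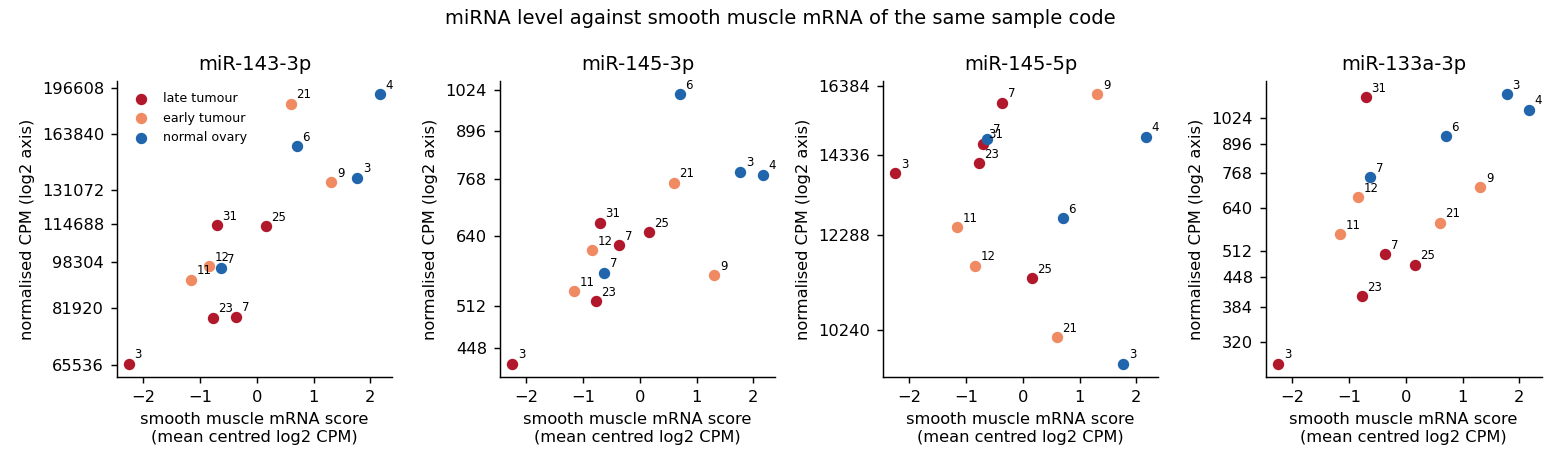
Normalised CPM on a log2 axis of miR-143-3p, miR-145-3p, miR-145-5p and miR-133a-3p against the smooth muscle messenger RNA score of the same sample code, 13 points with code numbers, coloured by group. MiR-143-3p climbs with the score (r = 0.857), miR-145-5p does not (r = -0.18), and late sample 31 lies above the other late tumours for miR-133a-3p.

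Markers of other cell types are given beside these values, and their part in the values above was not tested. No gene or miRNA of these lists was called by edgeR, DESeq2 or limma voom in any comparison. All 17 fibroblast and matrix genes had a log2 fold change below 0 in late against normal, beside 49.1% of all genes, with a median of -1.15, and 10 had an unadjusted p under 0.05, beside 17.9% of all genes. Their summed level was 481 to 1870 TPM in late tumours, 713 to 3530 TPM in early tumours and 1539 to 5530 TPM in normal ovaries. SPARC, a matrix protein and the most abundant of them, had a log2 fold change of -0.98 ± 0.36 SE (edgeR adjusted p = 0.245). The smooth muscle genes summed to 762 to 2789 TPM in late tumours, 1129.5 to 5136 TPM in early tumours and 1542 to 13237 TPM in normal ovaries. Of 8 epithelial genes tested 3 lay above 0 and 5 below in late against normal, beside 49.1% of all genes below 0. Their median was -0.26. The list summed to 1129 to 1722 TPM in late tumours, 958 to 1410.5 in early tumours and 808 to 1315 in normal ovaries. EPCAM, an epithelial surface protein and the most abundant of them, averaged 1193 ± 281 TPM in late tumours and 748 ± 289 TPM in normal ovaries (SD, n = 5 and 4; log2 fold change 0.63 ± 0.27 SE, edgeR adjusted p = 0.257). In late and normal samples the sums of the list were largely this gene. Epithelial miRNAs, of which miR-429-3p was the most abundant, summed to 1659 to 2528 CPM in late, 1425 to 2785 in early and 1625 to 2539 in normal libraries. Stromal miRNAs, led by miR-199-5p, summed to 6473 to 13825, 6337 to 10829 and 6780 to 11844 CPM in late, early and normal libraries, and endothelial miRNAs, led by miR-126-3p, to 43953 to 60526, 41796 to 56024 and 51498 to 65333 CPM. The stromal sums were largely miR-199-5p and say little of the other stromal miRNAs. Of 4 stromal miRNAs tested, 2 lay above 0 and 2 below in late against normal, beside 59% of all miRNAs below 0. At an unadjusted p under 0.05 there was 1 of the 4, beside 18.4% of all miRNAs. Red blood cell miRNAs summed to 35065 to 115839, 38327 to 363285 and 21378 to 88203 CPM, with the highest sum in early sample 11. In late against normal, miR-451 had a log2 fold change of 0.54 ± 0.64 SE (edgeR adjusted p = 0.685). MiR-144-3p had -0.79 ± 0.61 (edgeR adjusted p = 0.529). All 5 red blood cell genes tested lay below 0 in late against normal, beside 49.1% of all genes. HBA1, an alpha globin, averaged 91.0 ± 82.6, 239.6 ± 151 and 186 ± 109.7 TPM in late, early and normal samples (SD, n = 5, 4 and 4).

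Of 25 striated muscle genes 23 were in the table and 12 passed the filter, with 7 below 0 and 5 above 0 in late against normal, beside 49.1% of all genes below 0. At an unadjusted p under 0.05 there were 3 of the 12, beside 17.9% of all genes, and edgeR called none. ACTA1, the actin of skeletal muscle, averaged 33.7 ± 20.5 TPM in late tumours, 58.4 ± 47.9 TPM in early tumours and 368 ± 343 TPM in normal ovaries (SD, n = 5, 4 and 4). Its log2 fold change in late against normal was -3.55 ± 0.89 SE (edgeR adjusted p = 0.244), and DESeq2 and limma voom both called it lower (adjusted p = 0.0323 and 0.0486), beside 0.813% and 5.54% of all genes called. MYL2, a myosin light chain of heart and slow muscle, averaged 37.0 ± 3.77 TPM in late tumours, 24.0 ± 11.9 TPM in early tumours and 23.1 ± 10.9 TPM in normal ovaries. The list's summed level was 96.1 to 134 TPM in late tumours, 89.9 to 165 TPM in early tumours and 100.1 to 784 TPM in normal ovaries.

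Of 13 regulators of muscle genes 10 were tested, with 8 below 0 and 2 above in late against normal, beside 49.1% of all genes below 0. At an unadjusted p under 0.05 there were 4 of the 10, beside 17.9% of all genes, and edgeR called none. The median of the 10 was -0.19, beside 0.01 over all genes. GATA6 and JAG1 are named for their abundance or for being called, and do not stand for the whole list. Values of the other regulators, among them serum response factor and myocardin, are not reported here. GATA6, a transcription factor of smooth muscle and other cells, had a log2 fold change of -0.02 ± 0.24 SE (edgeR adjusted p = 0.969). JAG1, a Notch ligand, had 0.61 ± 0.20 SE (edgeR adjusted p = 0.244), and limma voom called it higher (0.65, adjusted p = 0.0452), as it called 5.54% of all genes, while DESeq2 did not. In the other comparisons 0 regulators were called by edgeR, DESeq2 or limma voom, and none had an unadjusted p under 0.05.

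Genes reported in mammals as targets of these miRNAs were read in the same way. Over all genes, 49.1% lay below 0 in late against normal and the median was 0.01. For miR-145, 11 of 12 listed targets were tested, 8 below 0 and 3 above in late against normal, with a median of -0.31. None was called by edgeR, DESeq2 or limma voom, and 2 had an unadjusted p under 0.05, a share near the 17.9% of all genes. FSCN1, which bundles actin, and ADAM17, a protease that sheds surface proteins, had log2 fold changes of -0.15 ± 0.19 and -0.02 ± 0.13 SE (edgeR adjusted p = 0.678 and 0.955). For miR-143, 8 of 10 were tested, 4 below 0 and 4 above, with a median of 0.01 and 4 at an unadjusted p under 0.05, beside 17.9% of all genes. FNDC3B, a membrane protein, was called higher in late against normal by limma voom (log2 fold change 0.44, adjusted p = 0.0487), beside 5.54% of all genes, and by neither edgeR nor DESeq2. PTGS2, the inducible cyclooxygenase, had a log2 fold change of 0.66 ± 0.28 SE (edgeR adjusted p = 0.263).

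For miR-1, 9 of 11 listed targets were tested, 5 below 0 and 4 above in late against normal, with a median of -0.04. For this list and the next, the share of all genes below 0 was 49.1%. HSPD1, a mitochondrial chaperone, and GJA1, a gap junction protein, had log2 fold changes of -0.11 ± 0.20 and 0.37 ± 0.23 SE (edgeR adjusted p = 0.782 and 0.383). For miR-133, 13 of 14 were tested, 10 below 0 and 3 above, with a median of -0.19, and RHOA and CDC42, GTPases that shape the actin skeleton, had -0.24 ± 0.21 and 0.17 ± 0.14 SE (edgeR adjusted p = 0.517 and 0.522). None of the targets of miR-1 or miR-133 was called by edgeR, DESeq2 or limma voom, with 1 of 9 and 4 of 13 at an unadjusted p under 0.05, beside 17.9% of all genes. No target of any of the 4 lists was called in early against normal or in late against early by any of these tools. SRF stands in both the miR-133 and the regulator list, and HDAC4 in both the miR-1 and the regulator list.

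In the RefSeq annotation of assembly GRCg7b, used here for names and for which genes span each other, the genes MIR143 and MIR145 lie within LOC112533410, a long noncoding RNA gene. This gene and those below were chosen after some values were seen. LOC112533410 stood at 1.01, 7.89, 5.36, 13.9 and 4.16 TPM in late samples 3, 7, 23, 25 and 31, at 9.58, 6.51, 4.54 and 7.80 TPM in early samples 9, 11, 12 and 21, and at 7.37, 14.1, 11.6 and 6.61 TPM in normal samples 3, 4, 6 and 7. The groups overlapped, with late sample 3 the lowest library and late sample 25 close to the highest. Its log2 fold change was -0.75 ± 0.56 SE in late against normal (edgeR adjusted p = 0.469), -0.46 ± 0.60 in early against normal (adjusted p = 0.942) and -0.29 ± 0.57 in late against early (adjusted p = 0.897). How reads were assigned to strands is not given in the sources used here.

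Its level went with that of miR-143-3p, with r = 0.748 (permutation p = 0.00201, adjusted p = 0.0121 over 6 relations) and rho = 0.709 (permutation p = 0.00887, adjusted p = 0.0532). Without the 2 samples farthest from the median of LOC112533410 r was 0.549 (adjusted permutation p = 0.482), and with the miRNAs scaled by library size alone it was 0.560 (adjusted permutation p = 0.255), neither past the threshold. MiR-145-3p had r = 0.676 (permutation p = 0.013, adjusted p = 0.0389) and rho = 0.604 (permutation p = 0.0322, adjusted p = 0.0967). Without 2 samples its r was 0.411 and by library size alone 0.384 (adjusted permutation p = 0.617 and 0.474). Centred on group means, r was 0.673 for miR-143-3p and 0.592 for miR-145-3p (adjusted permutation p = 0.0636 and 0.153), neither past the threshold. With miR-451 left out before scaling, r was 0.737 and 0.694, and both passed (adjusted permutation p = 0.0169 and 0.0241). In that setting rho was 0.703 and 0.615, and neither passed (adjusted permutation p = 0.056 and 0.0867). MiR-145-5p had r = -0.0961 (permutation p = 0.760) and rho = 0.011, and miR-143-5p r = 0.0448 (permutation p = 0.885).

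The genes of miR-1a and miR-133a lie in 2 pairs. MIR1-2 and MIR133A1 lie within both MIB1, a ubiquitin ligase gene, and LOC121111953, a long noncoding RNA gene, which had 14 to 58 counts a library. LOC121111953 averaged 0.698 ± 0.238 TPM in late tumours, 0.588 ± 0.354 TPM in early tumours and 0.5684 ± 0.173 TPM in normal ovaries (SD, n = 5, 4 and 4), and MIB1 13.3 ± 1.44, 12.2 ± 1.91 and 12.9 ± 1.39 TPM. With LOC121111953, miR-133a-3p had r = -0.299 (permutation p = 0.322, rho = -0.412) and miR-1a-3p r = -0.295 (permutation p = 0.328, rho = -0.363). MIR1-1 and MIR133A2 lie within LOC101747836, which had 0 counts in 11 of 13 libraries, 2 in early sample 9 and 1 in normal sample 3. With so few counts its relations were left out.

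**Figure D5:**
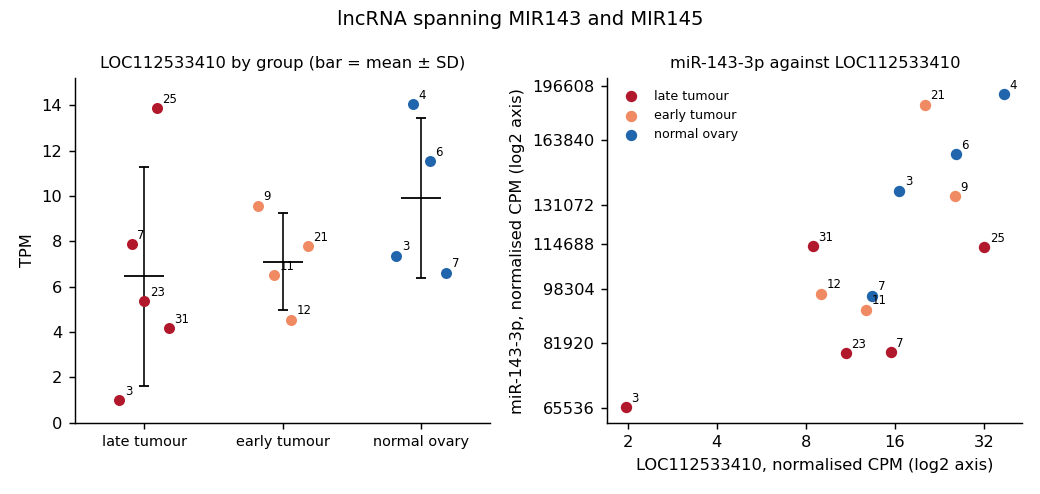
TPM of LOC112533410, the noncoding RNA gene that spans MIR143 and MIR145, in each library by group with mean ± SD, and normalised CPM of miR-143-3p against that of LOC112533410, both on log2 axes, for the 13 sample codes. Late sample 3 is lowest on both axes, at 1.01 TPM in the left panel, and the groups overlap.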

How the data were processed

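Per the labels, small RNA and messenger RNA of 13 sample codes were sequenced (26 records; which record is which kind is not given, so columns were mapped by code). The authors deposited raw miRNA counts, estimated counts per gene (30.1% not whole, rounded here before testing) and TPM values; an unnamed miRNA row held 0 counts. Per the submitters' processing notes the tools were FastQC, BWA and GATK 3.3.0, with no role stated; the sources used here give neither the counting program nor the genome build, and the extraction text speaks of column-bound DNA. Every table was fitted whole with edgeR 4.0.16 (R 4.3.3, glmQLFit, robust, TMM, filterByExpr, minimum count 10, all 13 libraries, mean per group). This left 266 miRNAs and 16130 of 25079 genes, with Benjamini-Hochberg adjustment and a threshold of 0.05. DESeq2 1.42.0 and limma 3.58.1 (voom) were alternatives. Throughout, limma voom stands for voom with sample quality weights, which give less weight to libraries that deviate, and a robust fit. Errors of fold changes are standard errors implied by the F statistic. Ratios had exact permutation tests and correlations 100000 permutations (SciPy 1.17.1). No within-group pair of miRNA libraries agreed within sampling noise. The edgeR fit was tested on simulated data. No batch is given in the labels. Named are the 6 miRNAs, other muscle miRNAs with 10 counts or more, the 3 miRNAs most like each, the 4 (smooth muscle) or 2 most abundant genes of a list, its called genes, and the most abundant feature of other cell types; genes called by DESeq2 or voom alone, the spanning genes, SRF and HDAC4 were chosen after their values were seen. Members and lists were chosen with earlier results of these data known. Some single-gene values are not reported here.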

Additional observations from a re-analysis of the deposited data

Results flagged for a closer look

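Values of a group were looked at again where the highest or lowest sample lay further from its neighbour than Dixon's 95% critical value allows, and 5 of 30 groups did; chance flags about 1 in 20 groups. MiR-133a-3p in late sample 31 was 1139.5 normalised CPM, against 505 in the next late tumour. MiR-143-5p in normal sample 7 was 24.6 normalised CPM, against 11.6 in the next normal ovary. The same library had the lowest share of miR-143-3p among miR-143 counts, 99.974%, against 99.992% in the next. MiR-1a-3p in normal sample 4 was 389 normalised CPM, against 171 in the next normal ovary. The log2 ratio of miR-143-3p over miR-145-5p in early sample 21 was 4.19, against 3.07 in the next early tumour.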

How the results depend on the processing

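Of the 6 miRNAs, the fold changes furthest from 0 kept their direction: in late against normal miR-143-3p, miR-143-5p, miR-145-3p and miR-133a-3p stayed below 0 under every alternative run, and none was called except miR-133a-3p without late sample 31. Leaving out 1 library gave 0 to 1 of the 6 called in late against normal. The cause of the changes below was not tested. The number of miRNAs called in late against normal, 2, became 1 with RLE factors, 0 with library size only, 6 with no filter, 14 with DESeq2, 0 with limma voom, 1 with miR-451 left out, 1 with only the 2 groups, 1 with near-identical copies summed (added after seeing the data) and 0 to 10 without 1 library (10 without normal sample 7). In early against normal, 0 became 6 with no filter, 3 with DESeq2, 1 with miR-451 left out and 0 to 2 without 1 library, and in late against early, 0 became 5, 4, 3 and 0 to 3.

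Genes called by DESeq2 were 8 in early against normal, 126 in late against normal and 9 in late against early, against 0 in edgeR, limma voom called 893 in late against normal, and without 1 library edgeR called 0 to 113 (113 without normal sample 7). Smooth muscle genes called in late against normal, 0 in edgeR, were 5 with DESeq2, 3 with limma voom and 0 to 2 without 1 library (2 without normal sample 7).

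Log2 fold changes close to 0 changed sign. MiR-145-5p in early against normal became 0.00613 with RLE factors, 0.00614 with DESeq2, 0.0183 with miR-451 left out, 0.0328 with copies summed and -0.16 to 0.10 without 1 library. MiR-1a-3p in late against normal became 0.0676 with RLE factors, 0.0446 with no filter, 0.0677 with DESeq2, 0.0689 with limma voom, 0.000123 with miR-451 left out, 0.0507 with only the 2 groups and -0.12 to 0.52 without 1 library. In early against normal it became 0.0236 with miR-451 left out, 0.0959 with copies summed and -0.38 to 0.42 without 1 library, and in late against early -0.0235 with miR-451 left out, -0.0219 with only the 2 groups, -0.191 with copies summed and -0.0951 to 0.39 without 1 library. Without 1 library, miR-145-3p in late against early ranged between -0.18 and 0.0107, miR-143-3p in early against normal between -0.42 and 0.0143, and miR-143-5p in early against normal between -0.31 and 0.19. The share of miR-143-3p among its arms, early minus normal, was -0.00356 percentage points by medians and -0.00385 to 0.00281 without 1 library, and late minus normal -0.00118 to 0.00549.

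With the smooth muscle score, centring on group means gave r = 0.795 for miR-143-3p, -0.429 for miR-143-5p, 0.570 for miR-145-3p and 0.457 for miR-133a-3p. Without the 2 codes farthest from the median score r was 0.669 for miR-145-3p and 0.496 for miR-133a-3p, and with library size only 0.658 for miR-133a-3p. With the striated muscle score it became -0.140 for miR-143-3p, -0.112 for miR-145-3p and -0.286 for miR-133a-3p without 2 codes. Added after seeing the data, r with LOC112533410 became -0.431 (centred) and -0.0850 (library size only) for miR-143-5p, and 0.0126 (centred) for miR-145-5p. Between miRNAs, r became 0.0378 for miR-143-3p with miR-145-5p without 2 codes, 0.00510 for miR-145-5p with miR-145-3p by library size only, and 0.0332 (centred), 0.257 (without 2 codes) and 0.0683 (library size only) for miR-145-5p with miR-133a-3p.

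Codes 3 and 7 occur in both late and normal. Deviations from the group means correlated at -0.12 and 0.0625 for same-numbered libraries, and at 0.454 and 0.21 for unlike numbers. Such values cannot decide whether a shared number marks the same bird, as samples of 1 bird need not deviate alike. A fit of these 4 libraries with a replicate block called 0 miRNAs in late against normal. That fit leaves 1 residual degree of freedom and so says nothing about the pairing. MiR-143-5p and miR-133c-3p rest on few counts, and the common biological variation of miRNAs, 40.5%, with 4 or 5 samples a group limits which differences can pass.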
